A study of Mus musculus with 21 samples.

Results

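The 97 mature miRNAs described here belong to the imprinted Dlk1-Dio3 cluster of mouse, the large group of miRNA precursors that lies between the genes Dlk1 and Dio3 on chromosome 12. They were taken by name: every annotated mature miRNA whose number is one of 46 assigned to the cluster, with either arm and any letter suffix, out of 1125 mature miRNAs in the data set. Small RNA was sequenced from whole kidney of male BALB/c mice, aged 12 weeks, after folic acid at 250 mg/kg in 0.3 M sodium bicarbonate, a dose that injures the renal tubules and is used as a model of acute kidney injury followed by fibrosis. The 7 sampling days were day 0, days 1 to 3, and days 7, 14 and 28, each with 3 libraries, which makes 21 in all. All 7 groups are of the same strain, sex and stated age and differ by day. Whether the 3 libraries of each day are from separate mice is not in the labels, and p-values therefore reflect library-to-library spread, which may be technical. After day 0 all mice had folic acid, and the labels do not say what the day 0 mice received, so folic acid, injection, vehicle, age and day of collection cannot be told apart in any comparison with day 0.

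Genes of the Dlk1-Dio3 domain are expressed from only one parental copy. Dlk1, Rtl1 and Dio3, which code for proteins, are expressed from the paternal chromosome, and the non-coding RNAs Meg3, Rian and Mirg, together with the antisense transcript of Rtl1, from the maternal one. The miRNAs of the cluster are cut from these maternal transcripts and are known chiefly from placenta, embryo, brain and muscle. Each precursor hairpin can give a mature miRNA from its 5p and its 3p arm, and bases 2 to 8 of a mature miRNA, its seed, are the main determinant of which messenger RNAs it pairs with.

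Of the 97 miRNAs, 13 had enough reads to be tested. Their mature sequences are shown here because all statements on changes between days rest on them or on their scarce neighbours. The sequences are those of RefSeq (GRCm38.p6), written 5′ to 3′ with the seed in capitals. The 3 that passed the test against day 0 on at least 1 day come first and are listed from the most to the least abundant.
miR-541-5p: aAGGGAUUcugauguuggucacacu
miR-409-3p: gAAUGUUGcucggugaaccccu
miR-341-3p: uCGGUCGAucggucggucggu
The other 10 follow in the order of their mean level.
miR-127-3p: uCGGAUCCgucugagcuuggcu
miR-411-5p: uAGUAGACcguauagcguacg
miR-434-3p: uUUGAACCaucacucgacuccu
miR-136-3p: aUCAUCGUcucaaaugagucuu
miR-410-3p: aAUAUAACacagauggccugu
miR-381-3p: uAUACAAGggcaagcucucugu
miR-300-3p: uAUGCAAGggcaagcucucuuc
miR-434-5p: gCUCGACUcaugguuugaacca
miR-136-5p: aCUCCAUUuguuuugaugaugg
miR-431-5p: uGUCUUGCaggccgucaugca
The 13 sequences have 13 distinct seeds, so the miRNAs that could be measured are not copies of a single seed family. The 89 cluster miRNAs with an entry in the RefSeq table have 86 distinct seeds, and 3 seeds are each shared by a pair of members: miR-379-3p with miR-411-3p, miR-494-5p with miR-410-5p, and miR-376c-5p with miR-376b-5p. Outside the cluster, the seed of miR-410-3p also occurs in miR-344d-3p and miR-344e-3p, which together had 29 reads against 788 for miR-410-3p. The nearest relatives among the tested members were miR-300-3p and miR-381-3p. Counted from the 5′ end, with the base of miR-300-3p first, they differ by G4A, U21G and C22U, the first of which lies in the seed. How the authors' counting treated reads that could match either is not given in the sources used here. No RefSeq entry was matched for miR-299-5p, miR-299-3p, miR-376c-3p, miR-485-5p, miR-487b-3p, miR-496-5p, miR-496-3p and miR-539-3p.

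The 45 hairpins with coordinates lie between positions 109563692 and 109743795 of chromosome 12 (GRCm38), a stretch of 180.104 kb. In the GENCODE annotation 1 of them, Mir770, overlaps an exon of Meg3 and 5 lie opposite an exon of Rtl1. A further 2 lie in introns of Rian, 12 within the annotated Mirg gene and 25 between annotated genes. All but Mir299b are on the plus strand. Mir127 (109592846 to 109592915) lies opposite the Rtl1 exon, Mir341 (109611500 to 109611595) in an intron of Rian, and Mir541 (109742409 to 109742498) and Mir409 (109743158 to 109743236) in introns of Mirg. For the sums given later the numbers were put into 4 groups along the locus: the Meg3 side (12 mature miRNAs), the antisense of Rtl1 (10), Rian (4), and the long block from miR-379 to miR-410, named here for Mirg (71).

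The cluster was a small and uneven part of the kidney's miRNAs. Its members together had 29126 reads, which was between 0.0245% and 0.0363% of all reads assigned to miRNAs on each day. miR-127-3p alone held 49.4% of those reads, and with miR-411-5p, miR-434-3p and miR-541-5p the share was 79.6%. By mean level, miR-127-3p ranked 128 and miR-411-5p ranked 191 among the 1125 miRNAs, whereas miR-409-3p ranked 354 and miR-341-3p was further down. The 13 tested miRNAs held 94.8% of the cluster's reads. Of the 84 others, 25 had no read in any library and 59 had between 1 and 95 reads over all 21 libraries, 20 of them no more than 10. Pooled over all libraries, a count of 0 allows up to 3 reads, or 0.0310 CPM (reads scaled to a fixed library total), a limit that covers counting error only. All arms of miR-412, miR-453, miR-544 and miR-654 were among those without a read. Reads of different miRNAs were compared by number only, since mature miRNAs are of similar length, but adapter ligation favours some sequences, so these ranks describe the libraries. As this is whole kidney, fewer cells of a type and less of a miRNA per cell cannot be told apart.

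**Figure D1:**
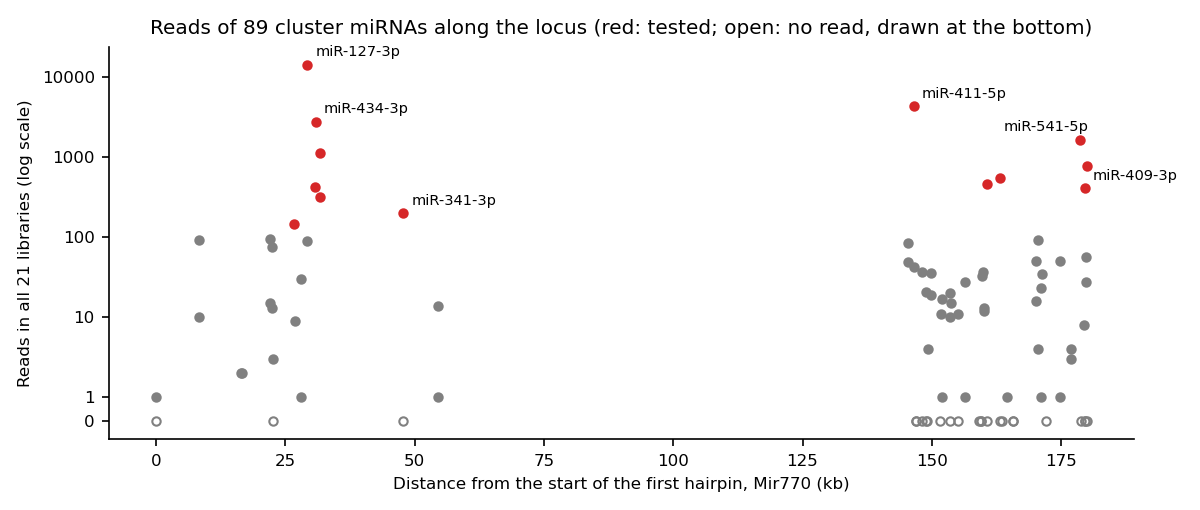
Reads of the 89 cluster miRNAs with a RefSeq entry in all 21 libraries together (log axis, miRNAs without a read drawn at the bottom as open circles) against the distance of the mature miRNA from the start of the first hairpin in kb. Tested miRNAs, in red, occur in the group opposite Rtl1, which holds miR-127-3p with 14387 reads, once in Rian (miR-341-3p, 201 reads) and in the block from miR-379 to miR-410.

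Between 2875675 and 7110546 miRNA reads were recovered per library (median 4494595). In a single library a count of 0 allows between 0.422 and 1.04 CPM, depending on its depth. The correlation of a library with the others of its day was between 0.989 and 0.997, and no 2 libraries of a day agreed within sampling noise. Levels below are TMM-scaled CPM, which is CPM corrected by TMM factors for differences in composition, and are listed in the order of replicates 1, 2 and 3. Fold changes are differences of log2(CPM + 1), so those of scarce miRNAs are understated. Calls are miRNAs with an adjusted p under 0.05 in limma, by the Benjamini-Hochberg method over all 431 tested miRNAs. All comparisons with day 0 share the same 3 day 0 libraries.

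Few members of the cluster were called in the first days, and those that were called were higher than on day 0. miR-409-3p was higher on days 1, 2 and 3, miR-341-3p on days 2 and 3, and miR-541-5p on day 3. No tested member was called lower than day 0 on any day. On day 1, 1 of 13 members was called, against 25.3% of all 431 tested miRNAs. On day 2 it was 2 of 13 against 43.4%, and on day 3 it was 3 of 13 against 49.4%. The share of members called was thus below that of all miRNAs on each of these days. With library totals in place of TMM scaling, 5 of 13 members were called on day 2 against 44.1% of all tested miRNAs, and 6 of 13 on day 3 against 45.2%, again all higher. On day 3 the share of members was then no longer below that of all miRNAs. That scaling shifted the median log2 fold change over all miRNAs by 0.18 and 0.17. Of the 13 members, 10 had a mean level below the median of all tested miRNAs (29.1 CPM), and the median standard error of their log2 fold changes was 0.24 against 0.18 over all miRNAs.

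miR-409-3p is cut from the 3p arm of a hairpin in an intron of Mirg. Of the 13 tested members it had the largest log2 fold change on each of days 1, 2 and 3. On days 7 and 14 the largest was that of miR-341-3p (0.57 and 0.78, against 0.44 and 0.75 for miR-409-3p). On day 0 the level of miR-409-3p was 2.34, 2.49 and 0.579 CPM. On day 1 it was 4.55, 4.92 and 6.35 CPM, on day 2 it was 4.13, 8.42 and 9.93 CPM, and on day 3 it was 6.08, 4.98 and 6.02 CPM. All 9 libraries of days 1 to 3 were thus above all 3 of day 0, among which replicate 3 was the lowest. Such separation was common in these data. On days 1, 2 and 3, 2, 2 and 3 of the 13 members lay wholly above day 0, against 18.1%, 31.3% and 31.6% of all 431 tested miRNAs. The log2 fold change of miR-409-3p was 1.24 on day 1 (SE 0.33, adjusted p = 0.00872, limma), 1.61 on day 2 (adjusted p = 0.000542) and 1.34 on day 3 (adjusted p = 0.00222). In reads, 24 on day 0 stood against 56, 135 and 79 on days 1, 2 and 3, and relative to the TMM-scaled totals the pooled ratio on day 2 was 3.74 (exact 95% counting interval 2.41 to 6.04). Without replicate 3 of day 0, the day 1 value was 0.83 and was not called (adjusted p = 0.0773), while those of day 2 (1.21, adjusted p = 0.00621) and day 3 (0.90, adjusted p = 0.0292) were.

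miR-341-3p, from an intron of Rian and close to the limit of detection on day 0, was the other member that differed on more than a single day. Its level was 0.781, 1.15 and 0.579 CPM on day 0, from 11 reads in all, and 2.05, 1.81 and 1.49 CPM on day 1. It was 2.28, 3.61 and 2.77 CPM on day 2 and 3.99, 1.47 and 3.61 CPM on day 3. Every library of days 1 to 3 was above every library of day 0, although day 3 replicate 2 was well below the other 2 of its day. The log2 fold change was 1.08 on day 2 (SE 0.33, adjusted p = 0.0119, limma) and 1.08 on day 3 (adjusted p = 0.00997), and it was 0.61 on day 1 (95% interval -0.08 to 1.30, adjusted p = 0.182). The pooled read ratio was 3.33 on day 2 (exact 95% counting interval 1.72 to 7.05) from 55 reads and 3.67 on day 3 (1.86 to 7.87) from 44 reads. Without day 0 replicate 3 both calls held narrowly (0.95 with adjusted p = 0.0487 on day 2, 0.93 with adjusted p = 0.0479 on day 3). Leaving out day 2 replicate 2 gave 0.94 and adjusted p = 0.0577 on day 2, and leaving out day 3 replicate 1 gave 0.90 and adjusted p = 0.0515 on day 3.

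miR-541-5p, from another intron of Mirg, was called on day 3 only. Its level was 15.4, 14.5 and 8.68 CPM on day 0 and 23.0, 27.8 and 19.9 CPM on day 3, without overlap. Between them it was 10.9, 14.8 and 21.7 CPM on day 1 and 14.7, 23.9 and 20.1 CPM on day 2, both overlapping day 0. The log2 fold change was 0.85 on day 3 (SE 0.27, adjusted p = 0.0121, limma) and 0.58 on day 2 (95% interval 0.02 to 1.14, adjusted p = 0.0872). Leaving out day 0 replicate 3 removed the day 3 call (0.53, adjusted p = 0.143), as did leaving out day 3 replicate 2 (0.70, adjusted p = 0.0709).

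**Figure D2:**
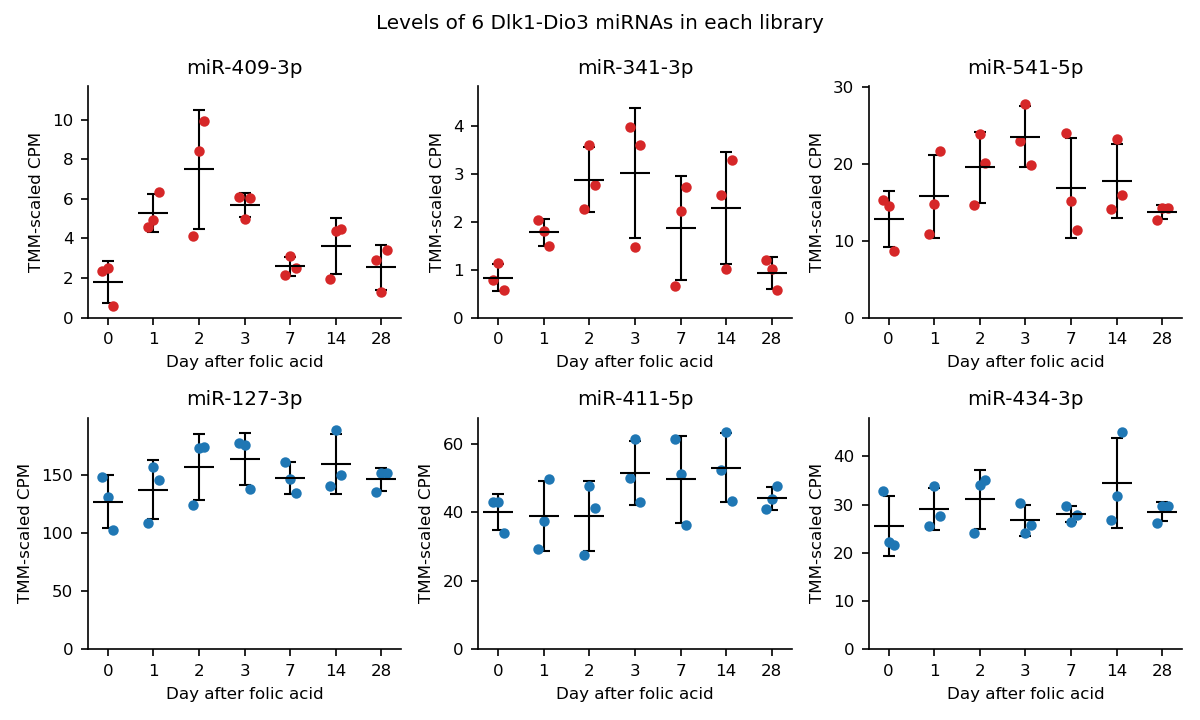
TMM-scaled CPM of 6 cluster miRNAs in each library (points, 3 per day) with the mean and SD of each day (bars), for miRNAs called against day 0 on at least 1 day (red, top) and the 3 most abundant of the rest (blue, bottom). For miR-409-3p all libraries of days 1 to 3 lie above those of day 0, whereas the days of miR-127-3p, from 103 to 189.6 CPM, overlap.

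The 3 most abundant members did not pass the test on any day. miR-127-3p, which pairs perfectly with the Rtl1 messenger RNA because it is cut from the opposite strand, was at 148, 131 and 103 CPM on day 0. It was 109, 158 and 146 CPM on day 1, 125, 173 and 174 CPM on day 2, and 178, 176 and 138 CPM on day 3. The later values were 162, 147 and 134.5 CPM on day 7, 140.4, 189.6 and 150.3 CPM on day 14, and 135, 152 and 152 CPM on day 28. Every day overlapped day 0. Its largest log2 fold change was 0.37 on day 3 (95% interval 0.02 to 0.72, adjusted p = 0.0799, limma). With library totals in place of TMM scaling, miR-127-3p was called on day 2 (0.50, adjusted p = 0.0256) and day 3 (0.55, adjusted p = 0.0121).

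miR-411-5p, the most abundant member of the block from miR-379 to miR-410, was at 43.0, 43.0 and 33.9 CPM on day 0. It was 29.4, 37.6 and 49.7 CPM on day 1, 27.6, 47.6 and 41.4 CPM on day 2, and 50.1, 61.5 and 42.9 CPM on day 3. Later it was 61.5, 51.2 and 36.3 CPM on day 7, 52.4, 63.4 and 43.3 CPM on day 14, and 40.9, 43.9 and 47.6 CPM on day 28. Day 14 was just above day 0 without overlap, and the other days overlapped it. Of all tested miRNAs, 27.4% lay wholly above day 0 on day 14. The largest log2 fold change of miR-411-5p was 0.39 on day 14 (95% interval -0.07 to 0.85, adjusted p = 0.152, limma). With library totals, miR-411-5p was called on day 3 (0.54, adjusted p = 0.0355).

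miR-434-3p, from the hairpin next to Mir136 in the group opposite Rtl1, was at 32.8, 22.2 and 21.7 CPM on day 0. It was 25.5, 33.9 and 27.6 CPM on day 1, 24.1, 34.1 and 35.1 CPM on day 2, and 30.4, 24.0 and 25.7 CPM on day 3. Later it was 29.7, 26.5 and 27.8 CPM on day 7, 26.8, 31.7 and 45.0 CPM on day 14, and 26.2, 29.6 and 29.7 CPM on day 28. Day 14 replicate 3 was its highest library, and the log2 fold change of that day was 0.41 (95% interval 0.02 to 0.81, adjusted p = 0.0846, limma). Day 14 was called when its lowest library, replicate 1, was left out (0.57, adjusted p = 0.0277), and also when replicate 1 of day 0 was (0.58, adjusted p = 0.0286). Leaving out the lowest library of day 14 or the highest of day 0 raises the value by construction, so these calls add no support.

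miR-136-3p lies with miR-127 and miR-434 opposite Rtl1. It was 11.5, 10.1 and 12.2 CPM on day 0, 8.20, 12.95 and 11.2 CPM on day 1, 8.84, 17.6 and 14.6 CPM on day 2, and 14.0, 10.6 and 8.83 CPM on day 3. Day 7 had 10.2, 13.8 and 10.2 CPM, day 14 had 7.48, 12.8 and 14.6 CPM, and day 28 had 9.14, 9.95 and 11.04 CPM. Its daily means lay between 10.04 and 13.7 CPM, and the test over all days gave an adjusted p of 0.870 (F test of limma).

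miR-410-3p, from the last hairpin of the block towards Dio3, was at 10.4, 7.27 and 5.21 CPM on day 0. It was 6.15, 5.44 and 7.47 CPM on day 1, 8.55, 9.49 and 9.70 CPM on day 2, and 10.4, 8.79 and 7.82 CPM on day 3. It was 11.1, 9.08 and 7.95 CPM on day 7, 5.32, 7.08 and 9.89 CPM on day 14, and 7.46, 5.10 and 7.99 CPM on day 28. Day 0 itself spanned nearly the whole range seen on the other days, and the largest log2 fold change was 0.30 on day 7 (95% interval -0.18 to 0.77, limma).

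miR-381-3p was the member nearest to a lower level. It was 7.03, 5.74 and 5.79 CPM on day 0 and 3.64, 4.15 and 5.23 CPM on day 1, without overlap. Of all tested miRNAs, 17.6% lay wholly below day 0 on day 1. miR-381-3p was 5.84, 4.94 and 4.62 CPM on day 2, 7.02, 7.33 and 6.82 CPM on day 3, and 6.07, 5.21 and 4.97 CPM on day 7. It was 3.74, 7.76 and 6.12 CPM on day 14 and 5.77, 6.89 and 5.71 CPM on day 28. The log2 fold change of day 1 was -0.43 (95% interval -0.84 to -0.03) with adjusted p = 0.117 (limma), so it did not pass. miR-300-3p, its near relative in sequence, was at 3.91, 5.55 and 2.32 CPM on day 0, 3.42, 5.96 and 5.23 CPM on day 1, 3.28, 4.94 and 5.78 CPM on day 2, and 7.59, 7.62 and 4.61 CPM on day 3. It was 5.42, 5.65 and 2.73 CPM on day 7, 3.94, 7.42 and 2.59 CPM on day 14, and 2.65, 4.85 and 4.95 CPM on day 28. The 2 highest libraries of miR-300-3p were both of day 3, whose log2 fold change was 0.66 (95% interval -0.03 to 1.34, adjusted p = 0.111, limma).

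The remaining 3 tested members were scarcer and were not called on any day. miR-434-5p, the minor arm of its hairpin, ranged from 2.05 to 6.55 CPM, with 3.76 ± 0.363 CPM on day 0 and 5.64 ± 1.31 CPM on day 2 (SD, n = 3). Its day 2 log2 fold change was 0.46 (95% interval 0.00 to 0.93, adjusted p = 0.0993, limma). miR-136-5p, likewise a minor arm, ranged from 1.30 to 5.36 CPM, and its log2 fold changes lay between -0.33 on day 1 and 0.26 on day 14. miR-431-5p, from the first hairpin opposite Rtl1, ranged from 0.259 to 3.06 CPM, and its largest log2 fold change was 0.55 on day 14 (95% interval -0.23 to 1.33).

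**Figure D3:**
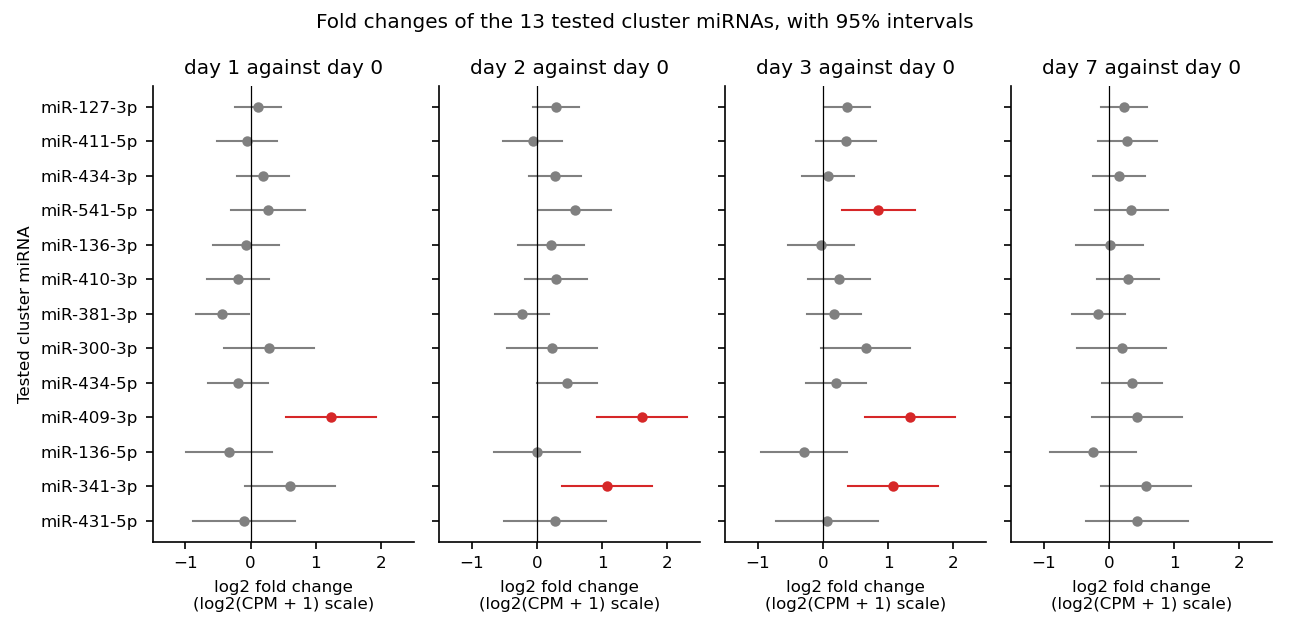
Log2 fold change against day 0 on the log2(CPM + 1) scale (horizontal axis) for the 13 tested cluster miRNAs, ordered by mean level with the most abundant on top, on days 1, 2, 3 and 7; lines are 95% intervals from limma and red marks calls. Only miR-409-3p, miR-341-3p and miR-541-5p are red, on days 1 to 3, and no miRNA is red on day 7.

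Against day 0, the median absolute log2 fold change of the 13 tested members was 0.28 on day 2, 0.29 on day 3 and 0.33 on day 14, below the 0.39, 0.43 and 0.39 over all 431 miRNAs. It was 0.20 against 0.19 for the later days against days 1 to 3. The scale shrinks the values of scarce miRNAs, which most members were. Most members lay above day 0 rather than below it: 11 of 13 had a positive log2 fold change on each of days 2, 3, 7 and 14, 9 on day 28 and 6 on day 1. Over all tested miRNAs the share with a positive value was between 49.0% and 53.8% on these days. The members' median log2 fold change was 0.28 (day 2), 0.25 (day 3), 0.28 (day 7) and 0.33 (day 14), against 0.02, 0.06, 0.07 and 0.05 over all miRNAs. On day 1 it was -0.06 and on day 28 it was 0.08. These medians rest in part on 1 library that all comparisons share. Without day 0 replicate 3 they were 0.11 (day 2), 0.09 (day 3), 0.02 (day 7) and 0.17 (day 14), and -0.08 on day 28. With upper-quartile scaling the median of day 3 was 0.16 and that of day 7 was 0.10, and with library totals the day 1 median turned to 0.02.

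By the later days the calls against day 0 were gone. On day 7, 0 of 13 members were called by limma, against 52.4% of all tested miRNAs, and none had an unadjusted p under 0.05. On day 14 it was 0 of 13 against 42.9%, with 3 at an unadjusted p under 0.05 (miR-341-3p, miR-409-3p and miR-434-3p). On day 28 it was 0 of 13 against 13.0%, with 0 at an unadjusted p under 0.05. The edgeR quasi-likelihood test on recovered reads called 0, 1 and 0 members on these days, the 1 being miR-341-3p on day 14 (adjusted p = 0.0396), and DESeq2 called none.

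miR-409-3p was the member whose course was clearest. On day 7 it stood at 2.17, 3.12 and 2.49 CPM. Day 14 had 1.97, 4.39 and 4.48 CPM, and day 28 had 2.89, 1.28 and 3.43 CPM. The mean of days 7, 14 and 28 was lower than that of days 1, 2 and 3 by 0.88 on the log2 scale (log2 difference -0.88, SE 0.19, adjusted p = 0.0011, limma), a comparison that uses no day 0 library. This was the only call among the 13 members, against 37.4% of all tested miRNAs (with library totals 3 members against 38.7%), and it held with each library of these days left out in turn (adjusted p at most 0.00384). miR-409-3p overlapped day 0 on days 7, 14 and 28. Day 14 had a log2 fold change of 0.75 (95% interval 0.06 to 1.44, adjusted p = 0.0729, limma).

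miR-341-3p was uneven on the later days. It was 0.650, 2.23 and 2.73 CPM on day 7, 2.56, 1.01 and 3.30 CPM on day 14 and 1.20, 1.02 and 0.571 CPM on day 28. Replicate 1 of day 7 and replicate 2 of day 14 were each within the range of day 0, and the other libraries of those days were above it. Without them the log2 fold changes were 0.94 on day 7 (adjusted p = 0.0259, limma) and 1.10 on day 14 (adjusted p = 0.0136), against 0.57 (adjusted p = 0.158) and 0.78 (adjusted p = 0.0611) with all libraries. As the libraries left out were the lowest of their days, the larger values follow by construction and add no support. On day 28 all 3 libraries were within or just outside the day 0 range, with a log2 fold change of 0.07 (95% interval -0.62 to 0.76). The mean of the later days against that of days 1 to 3 was -0.45 (adjusted p = 0.076, limma).

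miR-541-5p was 24.1, 15.2 and 11.4 CPM on day 7, 14.2, 23.3 and 16.0 CPM on day 14, and 12.8, 14.3 and 14.3 CPM on day 28. The last of these days was the tightest, and its 3 libraries lay inside the range of day 0. A test of equal means over all 7 days called 2 of 13 members, miR-409-3p (adjusted p = 0.00172, F test of limma) and miR-341-3p (adjusted p = 0.0294), against 63.1% of all tested miRNAs. That test did not call miR-541-5p (adjusted p = 0.114, F test of limma).

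Summed over all 97 miRNAs, the cluster's level overlapped between day 0 and every later day. The sum was 258 ± 44.7 CPM on day 0, 274 ± 46.8 CPM on day 1, 321 ± 63.4 CPM on day 2 and 337.04 ± 39.8 CPM on day 3 (SD, n = 3). It was 302 ± 35.4 CPM on day 7, 327 ± 49.0 CPM on day 14 and 283 ± 16.8 CPM on day 28. The lowest library of day 2, replicate 1 at 249 CPM, lay below the highest of day 0, replicate 1 at 300.3 CPM. These sums are set largely by miR-127-3p. In the group opposite Rtl1, which holds it, the sum was 173 ± 29.0 CPM on day 0, 215 ± 42.7 CPM on day 2, 218 ± 30.7 CPM on day 14 and 194 ± 13.5 CPM on day 28. In the block from miR-379 to miR-410 it was 80.1 ± 16.1 CPM on day 0, 118 ± 16.1 CPM on day 3, 103 ± 20.5 CPM on day 14 and 86.3 ± 6.41 CPM on day 28. That block did not overlap on day 3, with 116, 134 and 102 CPM against 92.5, 85.9 and 61.9 CPM on day 0. The sum of all members but miR-127-3p was just apart, at 152.9 CPM or more on day 3 against at most 152.1 CPM on day 0. On the other days both overlapped day 0. Of all tested miRNAs, 31.6% lay wholly above day 0 on day 3. These sums were not tested.

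The 2 scarce position groups had different courses. On the Meg3 side, where miR-337, miR-673 and miR-540 lie, the sum was 4.43, 2.87 and 3.76 CPM on day 0, 3.19, 2.33 and 2.24 CPM on day 1, and 3.99, 6.41 and 4.39 CPM on day 2. Day 3, at 4.56, 3.22 and 3.61 CPM, was again within or near the range of day 0. It was 2.38, 2.53 and 1.99 CPM on day 7, 1.58, 2.36 and 2.83 CPM on day 14, and 1.92, 1.02 and 2.28 CPM on day 28, so all 9 libraries of these days lay below the 3 of day 0, the highest of them by little. These values rest on 45 reads on day 0 and between 24 and 36 on each of the later days. Of all tested miRNAs, taken singly, 27.1%, 20.2% and 12.1% lay wholly below day 0 on days 7, 14 and 28. In Rian, where most reads are of miR-341-3p, the sum was 1.06 ± 0.409 CPM on day 0, 3.25 ± 1.30 CPM on day 3 and 1.06 ± 0.130 CPM on day 28. Neither sum was tested.

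The scarce members, summed, were at their highest on days 2 and 3. The 84 miRNAs too scarce to test summed to 15.9, 11.7 and 9.55 CPM on day 0 and to 11.8, 13.5 and 11.6 CPM on day 1. They summed to 17.7, 23.6 and 20.6 CPM on day 2 and to 18.8, 22.3 and 19.9 CPM on day 3, so that all 6 of these libraries were above all 6 of days 0 and 1. On day 7 they were at 14.3, 15.2 and 15.2 CPM, on day 14 at 11.2, 18.6 and 14.4 CPM, and on day 28 at 14.0, 6.12 and 13.1 CPM. The sum was read off after the members were grouped by the read filter and is a description, with no test. It rests on 155 reads on day 0, 390 on day 2 and 274 on day 3. Over the whole data set, the miRNAs with a read per library numbered 593 to 625 on day 0 and 587 to 621 on day 1. They numbered 645 to 683 on day 2 and 624 to 661 on day 3. Such numbers depend on depth, so the ranges are not directly comparable. Reads per library ran from 3571696 to 5886820 on day 0 and from 2875675 to 4286091 on day 1. On day 2 the range was 3791713 to 7110546, and on day 3 it was 3212481 to 4916417. Whether the other scarce miRNAs of the data set rose alike was not tested, so the rise cannot be called particular to the cluster.

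**Figure D4:**
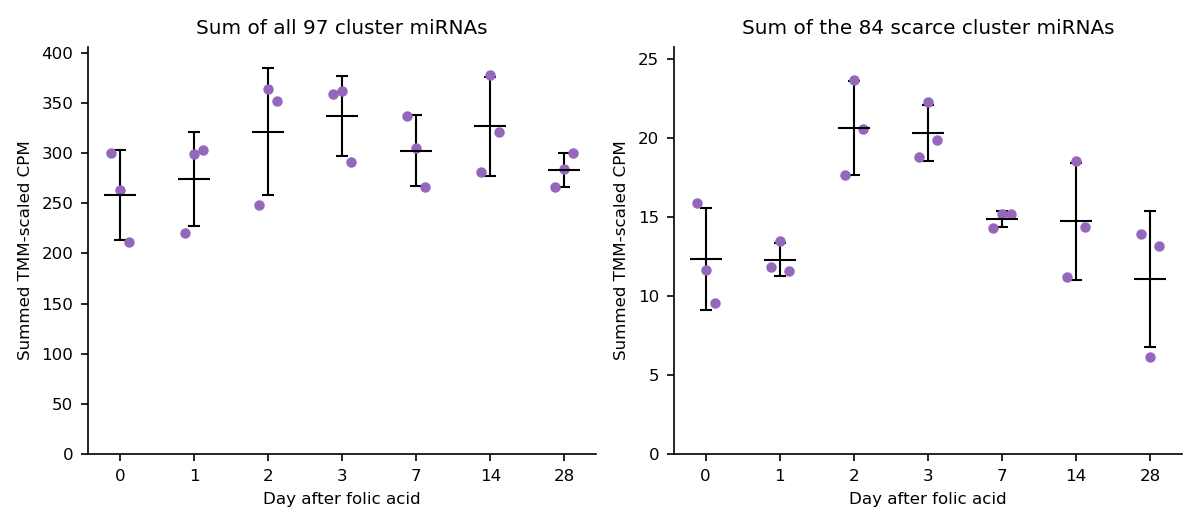
Summed TMM-scaled CPM of all 97 cluster miRNAs (left) and of the 84 that were too scarce to test (right) in each library (points) with the mean and SD of each day (bars). On the left day 0 and day 3 overlap, and on the right the 6 libraries of days 2 and 3, from 17.7 to 23.6 CPM, lie above the 6 of days 0 and 1.

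Which scarce miRNAs contributed was examined with the filter on low reads removed, which tests 875 miRNAs, 72 of them in the cluster. Adjusted p-values in this paragraph come from limma with no filter. On day 2 it called 5 of 72 members, all higher, against 19.5% of all miRNAs with a read. Beside miR-409-3p and miR-341-3p these were miR-127-5p (log2 fold change 0.82, adjusted p = 0.0492), miR-540-3p (0.75, adjusted p = 0.048) and miR-411-3p (0.59, adjusted p = 0.031). On day 3 it called 6 of 72, all higher, against 24.8%. Beside the 3 named before, these were miR-299-3p (1.07, adjusted p = 0.00222), miR-134-5p, known from the dendrites of neurons (0.86, adjusted p = 0.0282), and miR-382-5p (0.72, adjusted p = 0.0264). On day 1 it called 2 of 72 against 10.3%, miR-409-3p and miR-495-3p (0.46, adjusted p = 0.0358), both higher. On day 7 it called 2 of 72 against 24.7%, miR-299-5p (0.42, adjusted p = 0.0375) and miR-382-3p (0.40, adjusted p = 0.0349), both higher. On day 14 it called 2 of 72 against 19.9%, of which miR-299-5p was higher (0.43, adjusted p = 0.0376) and miR-673-5p was lower (-0.73, adjusted p = 0.0189), the only cluster miRNA called below day 0 in this fit. miR-673-5p, from the Meg3 side, was at 0.781, 1.53 and 1.74 CPM on day 0 and 0.394, 0.337 and 0.471 CPM on day 14, without overlap, from 17 and 5 reads. On day 28 it called 0 of 72 against 4.69%, with 2 at an unadjusted p under 0.05, and the F test called 8 of 72 against 30.1%. Each rests on few reads: miR-299-3p had 3 on day 0 and 22 on day 3, miR-134-5p had 8 and 24, and miR-540-3p had 9 on day 0 and 35 on day 2. Scarcer still were miR-495-3p, miR-299-5p and miR-382-3p, which lacked any read at day 0. Their called days held 4 reads for miR-495-3p (day 1) and 5 for miR-382-3p (day 7). miR-299-5p had 6 (day 7) and 4 (day 14). Since a library without a read allows up to 3, these calls are weak despite their adjusted p-values. Later days against days 1 to 3 gave 6 of 72, all lower, against 16.8%: miR-409-3p, miR-540-3p (-0.75), miR-134-5p (-0.58), miR-299-3p (-0.51), miR-433-3p (-0.42) and miR-495-3p (-0.28). Other scarce members with at least 1 library above 1.5 CPM were miR-379-5p (highest library 3.71 CPM), miR-337-5p (2.05 CPM), miR-673-5p (1.74 CPM) and miR-379-3p (1.71 CPM). The rest of the untested members stayed below that in every library.

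Arm usage was strongly one-sided. Of 14 precursors with at least 100 reads, 6 gave at least 90% of them from the 3p arm and 4 gave at least 90% from the 5p arm. The hairpins of the 3 miRNAs called against day 0 are shown with both mature arms in capitals, to place the measured arm, from RefSeq (GRCm38.p6).
miR-409: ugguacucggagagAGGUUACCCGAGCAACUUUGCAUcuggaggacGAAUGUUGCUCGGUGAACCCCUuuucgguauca
miR-341: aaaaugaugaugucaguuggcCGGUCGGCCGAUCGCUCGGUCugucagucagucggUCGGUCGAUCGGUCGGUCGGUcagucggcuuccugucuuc
miR-541: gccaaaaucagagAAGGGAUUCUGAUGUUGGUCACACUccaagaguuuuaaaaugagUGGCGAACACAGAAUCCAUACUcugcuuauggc
In miR-409 and miR-341 the measured arm is the second stretch of capitals and in miR-541 the first. Of the 420 reads of miR-409, 98.1% came from the 3p arm (exact 95% interval 96.3% to 99.2%). For miR-341 all 201 reads came from the 3p arm (at least 98.2% by the same interval), and for miR-541 all 1664 came from the 5p arm, which allows at most 0.221% for the other. The opposite arms of miR-341 and miR-541 therefore had no read in any library. miR-127 gave 99.4% from the 3p arm and miR-411 0.982%. Both arms were abundant only in miR-434, with 86.8% from the 3p arm, and miR-136, with 77.7%, and these are the hairpins for which both arms were tested. None of the 4 arms was called on any day.

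In some libraries many members were at the lowest level of their day at once. In day 2 replicate 1, 12 of the 13 tested members had the lowest of the 3 levels of the day, against 28.5% of all tested miRNAs, and in day 0 replicate 3 it was 10 of 13 against 35.3%. It was 9 in day 1 replicate 1 (33.2% of all tested miRNAs) and in day 3 replicate 3 (32.9%). It was 8 in day 14 replicate 1 (23.2%) and in day 28 replicate 1 (27.1%). In others the order was mixed, as in day 7 replicate 1, which was the highest for 8 members and the lowest for 4. Over all tested miRNAs that library was the highest for 40.6% and the lowest for 34.3%. No test of this was made. Without day 2 replicate 1, the day 2 log2 fold change of miR-434-5p was 0.63 and was called (adjusted p = 0.0486, limma). Leaving out a library with low values raises the fold change by construction, so this call adds no support.

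Markers of other cells changed on the same days. Of 5 miRNAs known from mesenchymal cells (the arms of miR-199 and miR-214), 0 were called higher on day 1, 3 on day 2 and all 5 on days 3 to 28, and their summed level was 1996 to 2401 CPM in the day 0 libraries and 3366 to 3701 CPM on day 3. On day 7 that sum was 5821 to 6065 CPM. Of 5 leukocyte miRNAs, 3 were higher on day 1 and 4 on each later day, while miR-150-5p, known from lymphocytes, was lower on day 2 (-0.66), with a sum of 875 to 1175 CPM on day 0 and 1506 to 1559 CPM on day 2. All 3 erythroid miRNAs were higher on day 2, with a sum of 1272 to 3332 CPM on day 0 and 4687 to 9525 CPM on day 2, and 0 of them were higher on day 3. Among them miR-144-3p was lower on day 3 (-1.33) and on day 14 (-1.55). Of 3 tested neuronal and endocrine miRNAs, miR-375-3p was higher from day 2 on, while miR-9-5p and miR-7a-5p were not called against day 0. The brain miRNA miR-124-3p did not have enough reads to be tested. Both arms of miR-126, known from endothelium, were lower on days 2, 3, 7 and 14. Of 2 smooth muscle miRNAs, miR-145-5p was higher on days 1, 3 and 14, and miR-143-3p was not called against day 0. Of 3 striated muscle miRNAs only miR-133a-3p was tested, and it was lower on day 7 (-1.11) and not called on the other days. Of 4 kidney epithelial miRNAs, 3 were lower on day 1 and 2 (miR-192-5p and miR-30a-5p) on each of days 2, 3, 7 and 14, while miR-204-5p was higher on days 3, 7, 14 and 28. The part of these cells in the values of the cluster was not tested.

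Of 16 further mature miRNAs of the same locus that carry other numbers, 9 had no read and 2 were tested. These were the arms of miR-1247, which lies near Dio3 outside the block of hairpins, and neither was called on any day. miR-1247-5p was at 17.5 ± 2.10 CPM on day 0 and 17.1 ± 2.52 CPM on day 3. At other imprinted loci, 5 of 10 listed miRNAs were tested. The 2 arms of miR-335 were not called against day 0. The 3 others, miR-296-5p, miR-296-3p and miR-298-5p, which all lie at the Gnas locus, were called higher on days 2, 3 and 7. miR-296-5p was also called higher on days 1, 14 and 28, and miR-298-5p on days 14 and 28. miR-296-5p was at 0.151 ± 0.135 CPM on day 0, 1.58 ± 0.233 CPM on day 2 and 2.67 ± 0.347 CPM on day 3. Its day 0 level was below what a count of 0 allows in a single library.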

How the data were processed

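The 21 libraries were grouped by the day given in the labels, 3 per day. Small RNA libraries came from Illumina's TruSeq kit, per the labels' protocols, and CASAVA 1.8 and the mouse build mm9 are named in the submitters' processing notes. Which aligner, counter and miRBase release were used is not given in the sources used here. The deposited table holds CPM of reads assigned to 1125 mature miRNAs, although its name calls them counts. Whole reads were recovered for 100% of the values (tolerance 0.05 of a read), so depth is known. Without molecular identifiers, reads are not independent molecules, and intervals and limits cover counting error only.

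Members are the mature miRNAs with 1 of 46 cluster numbers. The edgeR 4.0.16 function filterByExpr (minimum count 10) kept 431 miRNAs. TMM-scaled CPM plus 1 was taken to log2 and fitted with limma 3.58.1 (trend) in 1 fit over all libraries, with Benjamini-Hochberg adjustment over the 431. Each day was tested against day 0, days 7, 14 and 28 against days 1, 2 and 3, and all days by an F test. The 8 most abundant members and all called ones are given by library. Members and lists were chosen with earlier results of these data known. Alternatives were a pseudocount of 0.25, no filter, library totals, upper-quartile scaling, a replicate block, edgeR's quasi-likelihood test and DESeq2 1.42.0 on recovered reads, and each library left out. The script was tested on simulated data.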

Additional observations from a re-analysis of the deposited data

How the results depend on the processing

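No result changed sign after being called. The count of tested members called moved by over 1.5 times under 4 settings. With no filter it was 2, 5, 6, 2 and 2 on days 1, 2, 3, 7 and 14, 6 for later against earlier days and 8 in the F test, among 72 members tested. All these calls against day 0 were higher except that of miR-673-5p on day 14, and the shares over all miRNAs stand in the report. With library totals it was 5 on day 2, 6 on day 3, 3 for later against earlier days and 4 in the F test, and with upper-quartile scaling 2 for later against earlier days. Library totals moved the median of all miRNAs by 0.18 on day 2, 0.17 on day 3 and -0.11 for later against earlier days, and upper quartiles by -0.18 on day 7 and -0.12 on day 28. The added members with library totals were miR-127-3p, miR-434-5p and miR-541-5p on day 2, and miR-127-3p, miR-300-3p and miR-411-5p on day 3. edgeR called 1 member on day 14. With each library left out in turn, members called ran from 0 to 1 (day 1), 1 to 3 (day 2), 2 to 4 (day 3), 0 to 1 (day 7), 0 to 2 (day 14), 1 to 2 for later against earlier days and 1 to 3 in the F test. All miRNAs called in these fits ran from 82 to 99 (day 1), 151 to 176 (day 2) and 188 to 205 (day 3). They ran from 193 to 214 on day 7, from 159 to 188 on day 14 and on day 28 from 37, without day 28 replicate 1, to 57. For later against earlier days the range was 143 to 161, and in the F test 250 to 282. With all libraries, 109, 187, 213, 226 and 185 miRNAs were called on days 1, 2, 3, 7 and 14. Higher calls among all miRNAs were 56.0%, 56.1%, 61.5%, 56.6%, 85.7% and 52.8% on days 1, 2, 3, 7 and 28 and for later against earlier days. With library totals the share was 70.7%, 75.3% and 74.4% on days 1, 2 and 3, 75.6% on day 28 and 29.3% for later against earlier days. With upper quartiles it was 45.1% on day 7, 58.0% on day 28 and 38.2% for later against earlier days. With a replicate block, 1, 2, 3, 0, 0 and 0 members were called on days 1 to 28, as without it, and 111, 189, 209, 223, 185 and 54 of all miRNAs. No pairing of the libraries by replicate number was seen. Over 63 pairs with the same number the median correlation of deviations was -0.019, and 15 pairs were over 0.1. For 126 pairs with different numbers the median was 0.0024, and 28 pairs were over 0.1. In 6 of 21 libraries the mean correlation with libraries of other days was highest for their own number. The cause of these differences was not tested. Scarce members are limited by depth.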
